A study of Mus musculus with 11 samples.

Results

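The genes described here are the enzymes and regulators of sterol and fatty acid synthesis that the SREBP transcription factors are known to control. Their probe sets were those that the Mouse Genome 430 2.0 annotation assigns to exactly 1 gene of a list of 32. Of the 32 listed genes, 31 had such a probe set, 71 probe sets in all. Of these probe sets 56 passed a filter on dim signal (200 or more on at least 3 of the 11 arrays), which left 30 genes to test, 1 probe set per gene, among 10070 genes tested on the array. Acat2 was the gene without a probe set of its own name. Acacb, the mitochondrial acetyl-CoA carboxylase, had 2 probe sets, both under a signal of 23 on every array.

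Cultured cells of the mouse oligodendrocyte lineage were compared in 3 groups. CKO oligodendrocytes (n = 3 arrays) were MRF fl/fl, Olig2 wt/cre, so that Cre made under the Olig2 gene can delete both copies of Myrf, a transcription factor that the labels call MRF. Control oligodendrocytes (n = 4) came from littermates that were MRF wt/fl and also Olig2 wt/cre; both oligodendrocyte groups thus carry the Cre insertion in 1 Olig2 copy and at least 1 floxed Myrf copy. Brain cells taken at postnatal day 7 were depleted on BSL1, selected by immunopanning for PDGFRα, and cultured without serum in the presence of 2% B-27. Both oligodendrocyte groups were kept for 4 days in triiodothyronine (T3, 40 ng/ml) after PDGF-AA was withdrawn. Progenitors (OPC, n = 4) stayed in PDGF-AA (10 ng/ml) for 6 days; they are labelled control and their genotype is not stated. The labels do not say that replicates were separate cultures or animals, so p-values measure the spread between these arrays, which may be technical.

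Cells make cholesterol from acetyl-CoA through mevalonate, farnesyl diphosphate, squalene and lanosterol, and fatty acids from the same acetyl-CoA through malonyl-CoA. SREBP proteins are made in the endoplasmic reticulum membrane, where Scap carries them to the Golgi for cleavage when sterols are low and Insig proteins hold them back when sterols are high. Srebf2 is best known for the sterol genes and Srebf1 for the fatty acid genes, and oligodendrocytes are known for making much of their myelin lipid themselves.

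The promoters of the 3 genes that differed between CKO and control cultures, Hsd17b7, Ebp and Idi1, are shown together with that of Hmgcs1, the gene in which the sterol regulatory element searched for was found. The sequences are RefSeq promoter windows of build GRCm38.p6, each printed 5′ to 3′ along its gene. Hsd17b7 lies on the minus strand and its stretch is chr1:169969206-169969390. The Ebp stretch is chrX:8193543-8193702, also on the minus strand. The Idi1 stretch, chr13:8885541-8885605, and the Hmgcs1 stretch, chr13:119690101-119690330, are on the plus strand. All lie upstream of the annotated transcription start. Capitals mark CCAAT, the box bound by NF-Y, which reads ATTGG where it lies on the opposite strand, and TCACNCCAC, the core of the sterol regulatory element.
Hsd17b7: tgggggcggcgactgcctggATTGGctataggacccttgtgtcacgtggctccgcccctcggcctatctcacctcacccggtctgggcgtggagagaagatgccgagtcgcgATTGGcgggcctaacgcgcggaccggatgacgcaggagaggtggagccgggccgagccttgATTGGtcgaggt
Ebp: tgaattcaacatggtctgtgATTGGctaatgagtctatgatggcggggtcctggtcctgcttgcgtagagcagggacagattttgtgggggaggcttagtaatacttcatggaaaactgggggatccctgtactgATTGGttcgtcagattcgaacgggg
Idi1: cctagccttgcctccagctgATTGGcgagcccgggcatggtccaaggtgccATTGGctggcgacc
Hmgcs1: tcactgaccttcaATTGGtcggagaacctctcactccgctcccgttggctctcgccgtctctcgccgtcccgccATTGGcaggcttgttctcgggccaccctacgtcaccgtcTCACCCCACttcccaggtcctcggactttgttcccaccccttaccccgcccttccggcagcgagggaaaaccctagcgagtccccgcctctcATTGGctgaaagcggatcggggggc

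Windows of 250 bases before the start were found for 26 of the 32 listed genes, 35 windows in all because some genes have several starts. CCAAT on either strand was in 23 of the 35 windows (65.7%), against 33.8% of the 32851 windows of all genes in the table. GGGCGG on either strand, a box bound by Sp1 and left in lower case above, was in 25 (71.4%) against 32.7%. Counted by gene, 22 of 26 genes (84.6%) had a CCAAT box, against 37.5% of all genes in the table. A GGGCGG box was also in 22 (84.6%), against 35.4%. TCACNCCAC was in 1 window (2.86%), that of Hmgcs1, where it overlaps neither box, against 1.05% of all windows. A match describes letters in this window, and a window without a match says nothing of whether the factor binds there. Hsd17b7, Ebp and Idi1 had CCAAT boxes, as did Mvk and Nsdhl, which were not called between CKO and control.

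The arrays were checked against their labels before the comparisons. Myrf itself gave signals of 2849, 1904 and 2223 on CKO replicates 1 to 3 and of 7374, 6614, 7517 and 6215 on control replicates 1 to 4, so the groups did not overlap, though where this probe set lies relative to the deleted part is not given in the sources used here. On OPC replicates 1 to 4 it gave 752.1, 6848, 1135 and 970.5, so OPC replicate 2 stood apart. That array also had the lowest mean log2 level of the 7 cell cycle genes among progenitors, 10.70 against 12.64 or more on the other OPC arrays. OPC replicates 1 and 4 had Gapdh signal ratios of the 5′ to the 3′ end of 0.332 and 0.12, against 1.15 to 1.41 on the other 9 arrays. Oligodendrocyte markers averaged 12.51 to 13.11 on control, 9.93 to 11.01 on CKO and 8.91 to 10.82 on OPC arrays (log2 level, 10 genes, Cnp and Mbp the brightest in both oligodendrocyte groups). Astrocyte markers averaged 12.14 to 12.39 on CKO, 11.51 to 12.09 on control and 7.55 to 8.10 on OPC arrays over 12 genes, of which Gfap was the brightest in both oligodendrocyte groups. The differentiating cultures therefore carried astrocyte marker RNA as well as oligodendrocyte RNA. In such bulk RNA fewer cells of a type and less RNA per cell cannot be told apart.

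CKO and control oligodendrocytes were compared to see which genes depend on Myrf under differentiation conditions. Sterol enzymes were lower in CKO cultures at a few steps: Hsd17b7 3.26-fold, Ebp 2.65-fold and Idi1 1.58-fold. No regulator and no fatty acid gene passed the test, and no gene of the pathway was called higher. Thus 3 of 30 genes were called lower (limma, adjusted p under 0.05 over all genes) where 3.88% of all genes were lower, and 0 were called higher where 3.64% were; in either direction 7.53% of all genes were called. The 17 tested enzymes from Hmgcs1 to Dhcr7 lay below 0 in 16 cases, with a median log2 difference of -0.36, against 0.03 over all genes tested. The other 13 genes had medians nearer 0: 0.10 for the 5 regulators and -0.10 for the 7 fatty acid genes.

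**Figure D1:**
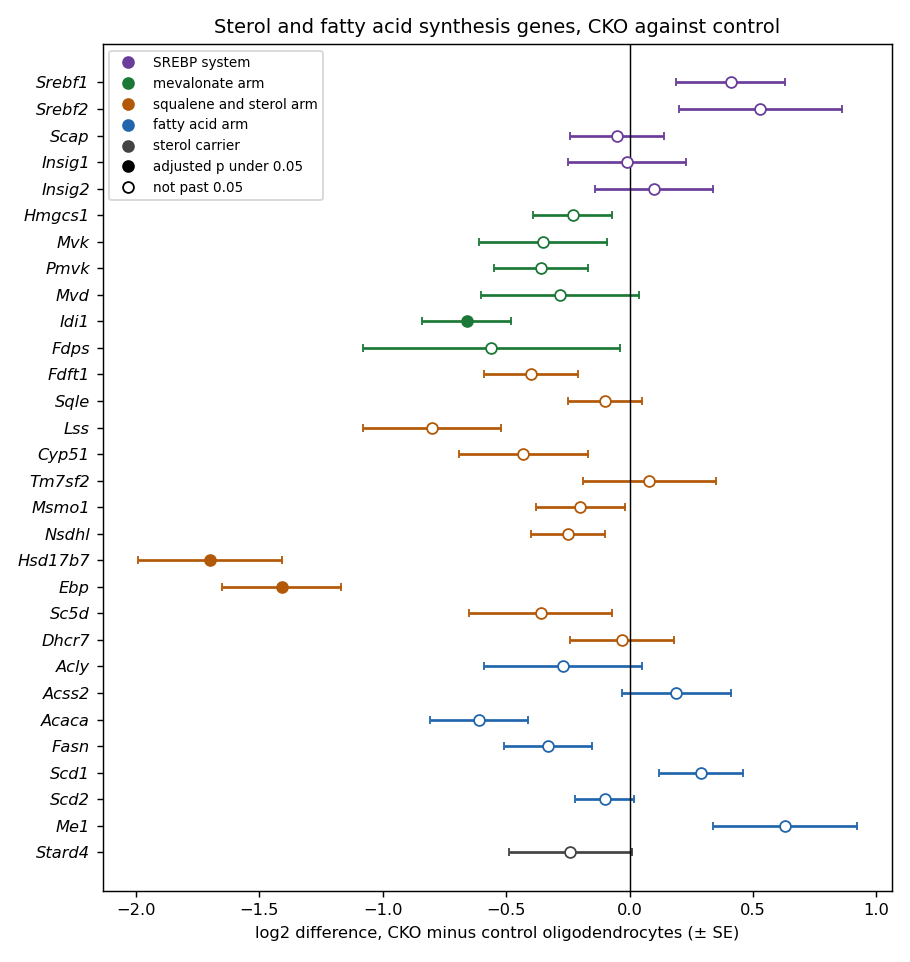
Log2 difference of CKO minus control oligodendrocytes for the 30 tested genes (points, with the standard error of the limma fit as bars), ordered by role and coloured by it; filled points passed an adjusted p of 0.05. Hsd17b7 (-1.70), Ebp (-1.41) and Idi1 (-0.66) are the filled points, and 23 of the 30 points lie below 0.

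Hsd17b7, a reductase of the steps that strip methyl groups from the sterol ring, had signals of 2024, 1338 and 1966 on the CKO arrays and of 5918, 5568, 4957 and 6567 on the control arrays. Every CKO array was below every control array. The log2 difference was -1.70 ± 0.29 (SE; limma, adjusted p = 0.00383). A second probe set of the gene gave 1029, 936.4 and 1105 against 2760, 2469, 2791 and 3272, a log2 difference of -1.45 ± 0.54. The third gave 1192, 822.5 and 604.0 against 2510, 2828, 1388 and 2171, a difference of -1.34 ± 0.45. All 3 kept probe sets were thus separate between the groups in the same direction, although only the brightest passed the test among 17133 probe sets (limma, adjusted p = 0.00564, 0.168 and 0.119). With that of Ebp it was 1 of 2 probe sets called lower among the 56 kept, where 3.13% of all probe sets were.

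Ebp, the isomerase that moves a double bond in the sterol ring, had signals of 686.8, 755.2 and 704.6 on the CKO arrays against 2528, 1652, 2380 and 1369 on the control arrays. The CKO values were close together and all under the lowest control array. Its log2 difference was -1.41 ± 0.24 (SE; limma, adjusted p = 0.00399). It had a single probe set above the filter, so no other probe set speaks to it.

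Idi1, which interconverts the isoprenoid building blocks made from mevalonate, gave 2651, 2723 and 2738 on the CKO arrays and 5124, 3678, 4867 and 3623 on the control arrays. The groups did not overlap, and the CKO arrays lay within a narrow band. The log2 difference was -0.66 ± 0.18 by the brightest probe set and -0.73 ± 0.22 by the other (SE). Neither was called over all probe sets (limma, adjusted p = 0.054 and 0.0777). Over all genes the brightest passed the test (limma, adjusted p = 0.0419). The call was lost in 7 of 21 alternatives (adjusted p 0.00551 to 0.135): without any 1 of the CKO arrays, without control replicate 1 or 3, without OPC replicate 1, and with no filter on dim probe sets.

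**Figure D2:**
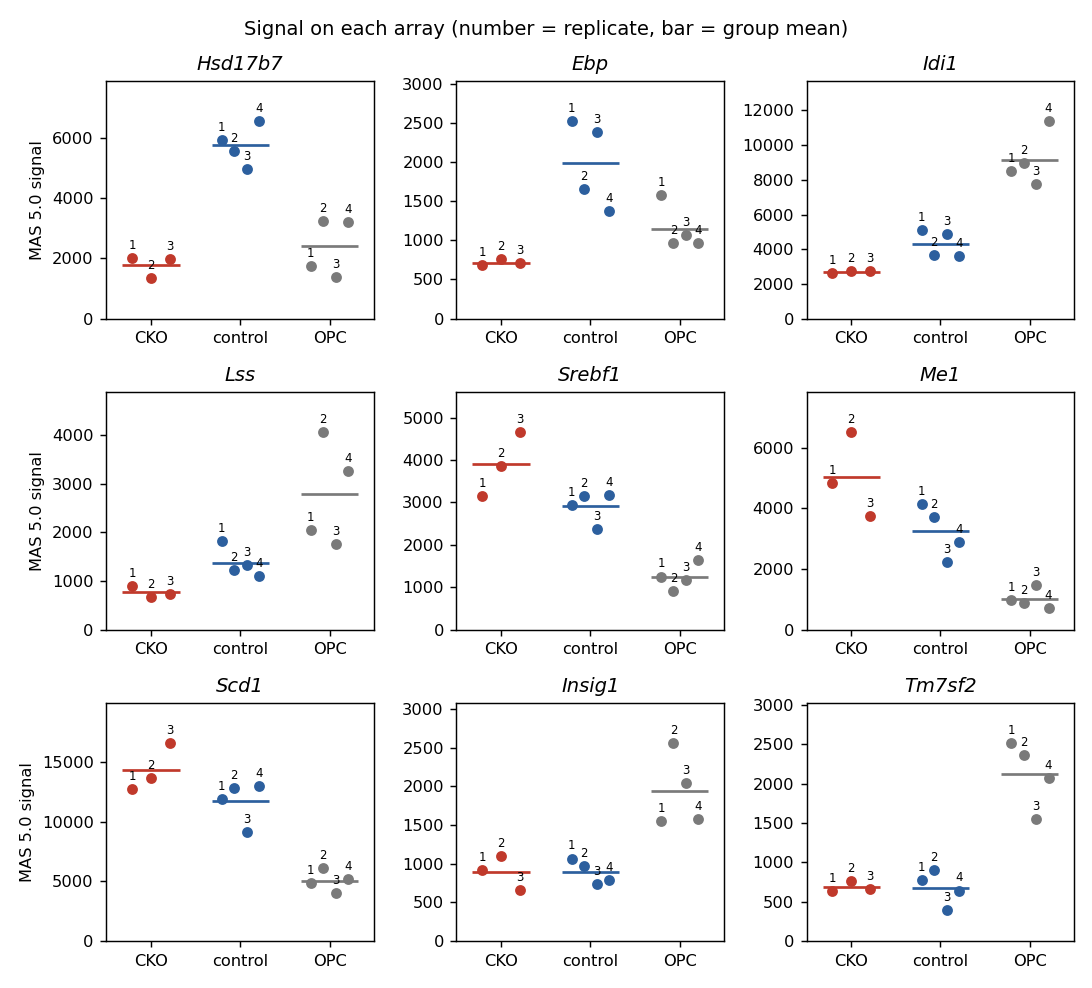
MAS 5.0 signal (linear axis from 0) of the brightest probe set of 9 genes on each array. Numbers are replicates and bars are group means. Hsd17b7, Ebp, Idi1 and Lss have every CKO array below every control array, Srebf1, Me1 and Scd1 have every OPC array below every oligodendrocyte array, and Insig1 and Tm7sf2 have every OPC array above them.

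Lss, the cyclase that makes lanosterol from squalene epoxide, gave 901.2, 666.8 and 744.0 on the CKO arrays and 1816, 1219, 1330 and 1111 on the control arrays. These did not overlap either, but the log2 difference of -0.80 ± 0.28 did not pass the test (limma, adjusted p = 0.118). Acaca, the cytosolic acetyl-CoA carboxylase that commits carbon to fatty acids, gave 970.7, 919.5 and 751.6 against 1514, 1325, 1558 and 1036 and also missed it (-0.61 ± 0.20, limma, adjusted p = 0.0987). In all, 9 of 30 genes (30.0%) had every CKO array under every control array: Hsd17b7, Ebp, Idi1, Lss, Acaca, Cyp51, Fdps, Pmvk and Nsdhl. The same was true of 14.2% of all genes tested. None of the 30 had every CKO array above the controls, which 17.4% of all genes did. These counts use the brightest probe set of each gene. By another probe set, Me1 and Sc5d had every CKO array above every control array, and Acly, Mvd and Mvk had every CKO array below.

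The labels number the replicates but do not say that same-numbered CKO and control arrays belong together. Taking them as pairs, a fit with replicate number as a block called 9 of the 30 genes in place of 3. It used the 2 groups alone, without control replicate 4. Among all genes that fit called 22.2%, 9.24% lower and 13.0% higher. Acaca (-0.73, adjusted p = 0.0225), Cyp51 (-0.48, adjusted p = 0.0416), Fasn (-0.46, adjusted p = 0.0445), Fdps (-0.65, adjusted p = 0.0271) and Lss (-0.89, adjusted p = 0.00721) then joined the lower genes in the limma test. Me1, the malic enzyme that supplies NADPH, joined as a higher gene (0.59, adjusted p = 0.0372).

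The remaining sterol enzymes had small differences between CKO and control cultures. In the mevalonate part the log2 differences were -0.23 for Hmgcs1 (HMG-CoA synthase), -0.35 for Mvk and -0.36 for Pmvk (the kinases of the route). Mvd, the decarboxylase that follows them, was at -0.28 and Fdps, farnesyl diphosphate synthase, at -0.56. In the sterol part, the squalene synthase Fdft1 was at -0.40, the squalene epoxidase Sqle at -0.10 and the lanosterol demethylase Cyp51 at -0.43. Msmo1 and Nsdhl, which act on the methyl groups of the ring, were at -0.20 and -0.25, the desaturase Sc5d at -0.36 and the last reductase Dhcr7 at -0.03. Only Tm7sf2, a sterol reductase, lay above 0, at 0.08, and its sign turned in some alternatives (-0.17 to 0.24), as did those of Dhcr7 (-0.16 to 0.11) and Sc5d (-0.61 to 0.06), whose other 2 probe sets were at 0.31 and 0.23. None of these passed the test.

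None of the 5 regulators passed the test between the oligodendrocyte groups. Srebf1 gave 3159, 3867 and 4665 on the CKO arrays and 2935, 3153, 2363 and 3185 on the control arrays, which overlapped (0.41 ± 0.22, limma, adjusted p = 0.298). Srebf2 gave 1948, 2475 and 1334 against 1623, 1182, 1114 and 1270, also with overlap (0.53 ± 0.33, limma, adjusted p = 0.4). Both transcription factor genes thus had higher means in CKO cultures, and neither difference passed the test. Scap, the escort protein, gave 2356, 2669 and 2857 against 2882, 2451, 2984 and 2543 (-0.05 ± 0.19). Insig1, itself a known SREBP target, gave 922.0, 1100 and 655.3 against 1066, 966.8, 740.7 and 782.3 (-0.01 ± 0.24). Insig2 gave 1473, 1193 and 1582 against 1293, 1244, 1344 and 1364 (0.10 ± 0.24). The groups overlapped for Scap and for both Insig genes.

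Fatty acid genes went both ways. Besides Acaca, the fatty acid synthase Fasn was at -0.33, the citrate lyase Acly at -0.27 and the desaturase Scd2 at -0.10. Scd1, the other stearoyl-CoA desaturase, was at 0.29, with signals of 12774, 13693 and 16646 on CKO and 11964, 12870, 9170 and 13050 on control arrays. Acss2, an acetyl-CoA synthetase, was at 0.19. Me1 gave 4819, 6518 and 3733 against 4139, 3705, 2244 and 2888 (0.63 ± 0.29, limma, adjusted p = 0.228), so CKO replicate 3 lay within the control range. By the other probe set of Me1 the groups did not overlap, again without a call (0.74 ± 0.32, limma over probe sets, adjusted p = 0.231). Stard4, a cytosolic sterol carrier, gave 802.4, 977.4 and 1290 against 819.1, 1350, 1229 and 1448 (-0.24 ± 0.25), with overlap.

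Markers of other cells and of the cell cycle moved beside these values. All 11 tested astrocyte markers had log2 differences above 0 in CKO against control cultures, from 0.05 to 0.99 with a median of 0.52, and 0 were called (limma); their summed signal was 97583 to 106018 on CKO and 64908 to 87606 on control arrays. Of 3 tested mural and fibroblast markers, the smooth muscle genes Tagln (2.58 ± 0.59, limma, adjusted p = 0.0188) and Myl9 (1.75 ± 0.46, adjusted p = 0.0386) were higher, and the summed signal of the list was 4688 to 8146 on CKO and 965 to 2799 on control arrays. Of 10 oligodendrocyte markers Mobp, Mag, Ermn and Mog were called lower, and 7 had every CKO array under every control array, where 14.2% of all genes did. Sox10 and Olig2 went the other way, with every CKO array above every control array, where 17.4% of all genes did. All 7 tested cell cycle genes had every CKO array under every control array (median -1.47), with mean log2 levels of 7.13 to 7.63 on CKO and 8.12 to 9.84 on control arrays, and Mki67 was called lower (4.01-fold, limma, adjusted p = 0.0443). Of 6 progenitor markers Vcan was called higher (2.04 ± 0.31, limma, adjusted p = 0.00172), and 3 had every CKO array above every control array. Pdgfra, the marker used for selection, went the other way, at -0.75 with every CKO array under every control array, and was not called. Of 5 tested neuronal markers Nefm was lower (-1.95 ± 0.52, limma, adjusted p = 0.0409). The part of these markers in the sterol gene differences was not tested. Microglial and endothelial markers reached signals of at most 147 and 55 on any array.

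Control oligodendrocytes were compared with progenitors to see how the cultures differ before and after differentiation; the progenitors' genotype is not stated, so any difference in genotype cannot be told apart from it. By the brightest probe set of each gene, most sterol enzymes were lower after differentiation. Srebf1, the fatty acid genes Me1 and Scd1 and the sterol enzymes Hsd17b7 and Ebp were higher. Of 30 genes, 13 were called lower (43.3%), where 29.6% of all genes were, and 5 higher (16.7%), where 24.4% were; in either direction 54.0% of all genes were called. The median log2 difference of the 30 was -0.36, against -0.09 over all genes. Among the 17 sterol enzymes 10 were lower and 2 higher.

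**Figure D3:**
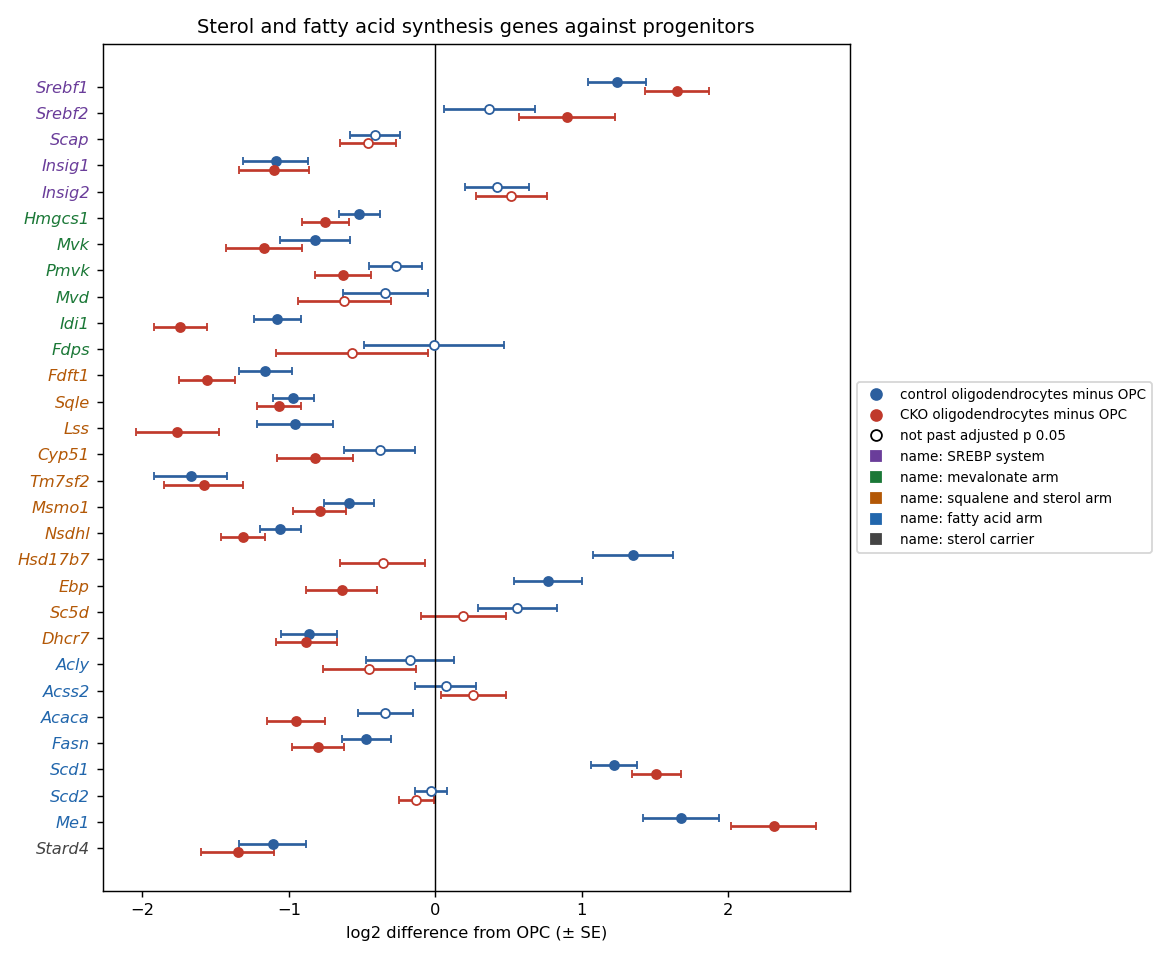
Log2 difference from OPC for control (blue) and CKO (red) oligodendrocytes, with standard errors; the 2 sets share the OPC arrays, filled points passed an adjusted p of 0.05, and name colours give the role. Hsd17b7 is at 1.35 in control and -0.36 in CKO cultures and Ebp at 0.77 and -0.64, while Me1, Srebf1 and Scd1 are above 0 and Idi1, Lss, Fdft1 and Tm7sf2 below 0 in both.

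Idi1 gave 8493, 8971, 7756 and 11415 on OPC replicates 1 to 4, all above the control oligodendrocytes, a log2 difference of control from OPC of -1.08 ± 0.16 (limma, adjusted p = 0.000241). CKO cultures were lower still, at -1.74 ± 0.18 from OPC (limma, adjusted p = 1.61e-05). The 3 groups therefore did not overlap for Idi1: OPC highest, control next and CKO lowest. Lss gave 2051, 4064, 1770 and 3264 on the OPC arrays, where replicate 3 lay just under control replicate 1. It was at -0.96 ± 0.26 in control (limma, adjusted p = 0.00885) and at -1.76 ± 0.28 in CKO cultures (limma, adjusted p = 0.000389).

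Fdft1, the first enzyme committed to sterols, gave 8637, 10812, 8134 and 13544 on OPC arrays, 4507, 4073, 4766 and 4698 on control and 2929, 3172 and 4288 on CKO arrays. OPC arrays were all above both oligodendrocyte groups, by log2 differences of -1.16 ± 0.18 for control and -1.56 ± 0.19 for CKO against OPC (limma, adjusted p = 0.000306 and 7.15e-05). By its other kept probe set Fdft1 overlapped OPC in both groups, at -0.34 ± 0.22 and -0.64 ± 0.24 (limma over probe sets, adjusted p = 0.201 and 0.0403). Tm7sf2 gave 2516, 2362, 1544 and 2064 on OPC, 779.7, 899.4, 387.4 and 640.3 on control and 639.5, 761.5 and 660.1 on CKO arrays. Again no OPC array reached down to the oligodendrocytes, which overlapped each other (-1.67 ± 0.25 and -1.58 ± 0.27; limma, adjusted p = 0.00023 and 0.00056). Nsdhl gave 5106, 5893, 4657 and 5900 on OPC, 2640, 2370, 2709 and 2562 on control and 1856, 2259 and 2366 on CKO arrays. It was lower by a similar step (-1.06 ± 0.14 and -1.31 ± 0.15; limma, adjusted p = 9.8e-05 and 4.07e-05), with every CKO array just under the lowest control array.

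Mvk gave 1331, 1236, 693.6 and 800.8 on OPC, 741.0, 439.4, 593.1 and 464.4 on control and 386.7, 509.4 and 390.3 on CKO arrays. Control replicate 1 overlapped the OPC range, and CKO did not (-0.82 ± 0.24 and -1.17 ± 0.26; limma, adjusted p = 0.014 and 0.00328). Stard4 gave 2304, 3633, 2503 and 2110 on the OPC arrays, above every oligodendrocyte array (-1.11 ± 0.23 and -1.35 ± 0.25; limma, adjusted p = 0.00209 and 0.0011). Another probe set of Stard4 was also called lower, at -1.46 ± 0.20 and -1.21 ± 0.22 (limma over probe sets, adjusted p = 0.000173 and 0.000987). The third overlapped and was not called, at -0.02 ± 0.21 and -0.19 ± 0.22 (limma over probe sets, adjusted p = 0.931 and 0.496). The other sterol genes called lower in control against OPC were Sqle (-0.97), Dhcr7 (-0.86), Msmo1 (-0.59) and Hmgcs1 (-0.52), and Fasn (-0.47) was the fatty acid gene called lower, a call lost in 6 of 21 alternatives. As the mean of all their probe sets, Hmgcs1 was at -0.24 and Mvk at -0.21 in control against OPC, and neither was called (limma, adjusted p = 0.232 and 0.48), whereas Cyp51 (-0.92, adjusted p = 0.00149) was then called lower and Insig2 (0.68, adjusted p = 0.00198) higher.

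Hsd17b7 and Ebp were the sterol enzymes called higher in control against OPC by their brightest probe sets. Hsd17b7 gave 1754, 3244, 1375 and 3213 on OPC arrays, all under the lowest control array, a log2 difference of 1.35 ± 0.27 (limma, adjusted p = 0.00156). In CKO cultures it overlapped the OPC range (-0.36 ± 0.29, limma, adjusted p = 0.326), and its other probe sets were at 1.09 ± 0.54 and 0.28 ± 0.45 from OPC there, so the sign depends on the probe set and no call was made by any. Ebp gave 1581, 970.2, 1072 and 962.1 on OPC arrays, of which replicate 1 overlapped the controls (0.77 ± 0.23, limma, adjusted p = 0.0131). CKO cultures were below every OPC array for Ebp (-0.64 ± 0.24, limma, adjusted p = 0.045), a call lost in 9 of 21 alternatives. Sc5d depended on the probe set: its brightest was at 0.56 ± 0.28 in control against OPC and not called, while the other 2 were at 1.58 ± 0.32 and 0.46 ± 0.16 and were called higher (limma over probe sets, adjusted p = 0.108, 0.0018 and 0.0312). It was also called higher as the mean of its probe sets (0.87, adjusted p = 0.00187), with array weights and without OPC replicate 2.

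Srebf1 gave 1255, 905.6, 1172 and 1639 on the OPC arrays, under every oligodendrocyte array. It rose by 1.24 ± 0.20 in control and 1.65 ± 0.22 in CKO cultures (log2; limma, adjusted p = 0.000385 and 9.63e-05). Its probe set does not tell the SREBP isoforms made from the gene apart. Insig1 went the other way, with 1552, 2562, 2045 and 1582 on OPC arrays, all above the oligodendrocytes (-1.09 ± 0.22 and -1.10 ± 0.24; limma, adjusted p = 0.00155 and 0.00247). Srebf2 gave 807.6, 1884, 1040 and 609.6 on OPC arrays, a wide range in which replicate 2 was highest. It was at 0.37 ± 0.31 in control and 0.90 ± 0.33 in CKO cultures (limma, adjusted p = 0.334 and 0.0413), and the second value lost its call in 12 of 21 alternatives. Scap gave 4020, 2734, 3308 and 4686 on OPC arrays, and Insig2 gave 1067, 843.9, 672.7 and 1483 by its brightest probe set. Both overlapped the oligodendrocytes and were not called (-0.41 and 0.42 in control against OPC). Another probe set of Insig2 was called higher without overlap in both groups (1.26 ± 0.25 and 1.36 ± 0.27, limma over probe sets, adjusted p = 0.00167 and 0.00178). With array weights, and without OPC replicate 2, Scap was called lower in both groups and Srebf2 higher in control against OPC.

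Me1 and Scd1 were the fatty acid genes called higher by their brightest probe sets. Scd2 depended on the probe set, as described below. Me1 gave 990.0, 874.8, 1473 and 706.6 on OPC arrays, under every oligodendrocyte array (1.68 ± 0.26 in control and 2.31 ± 0.29 in CKO against OPC; limma, adjusted p = 0.000328 and 6.54e-05). Scd1 gave 4834, 6088, 4057 and 5201, again without overlap (1.22 ± 0.16 and 1.51 ± 0.17; limma, adjusted p = 0.000102 and 4.21e-05). Me1 and Scd1, with Srebf1, were called higher in both oligodendrocyte groups and in every one of the 21 alternatives. By its other probe set Scd1 overlapped OPC in control cultures and was not called (0.62 ± 0.34, limma over probe sets, adjusted p = 0.149). In CKO cultures that probe set was called higher (1.34 ± 0.37, limma over probe sets, adjusted p = 0.0111).

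CKO oligodendrocytes against progenitors had 17 of 30 genes lower (56.7%), where 26.8% of all genes were lower, and 4 higher (13.3%), where 23.8% were; in either direction 50.6% of all genes were called. The median was -0.69, against -0.05 over all genes. This comparison shares the OPC arrays with the one above and the CKO arrays with the first, so the 3 are not independent. By their brightest probe sets, Acaca (-0.95), Cyp51 (-0.82), Ebp (-0.64) and Pmvk (-0.63) were called lower here and not in control against OPC. The other 2 probe sets of Cyp51 were called lower in control against OPC too (-1.69 and -0.68, limma over probe sets, adjusted p = 6.75e-05 and 0.0356). Of these 4 genes, Ebp passed the direct test of CKO against control, and Acaca and Cyp51 passed it with the replicate block. Not called by their brightest probe sets were the fatty acid genes Acly (-0.45), Acss2 (0.26) and Scd2 (-0.13). The sterol genes Fdps (-0.57), Mvd (-0.62), Hsd17b7 (-0.36) and Sc5d (0.19) were not called by theirs either. Another probe set of Mvd (-1.32) and another of Acly (-1.39) were called lower (limma over probe sets, adjusted p = 0.00336 and 0.000359). Sc5d was called higher by its other 2 (1.81 and 0.77, limma over probe sets, adjusted p = 0.00136 and 0.00394). So was Scd2 (2.93 and 3.91, limma over probe sets, adjusted p = 0.0141 and 0.001). No other kept probe set of these genes was called. The mean log2 level of the 17 sterol enzymes was 10.73 to 10.86 on CKO, 11.15 to 11.50 on control and 11.61 to 12.09 on OPC arrays, so the groups followed one another without overlap. For the 7 fatty acid genes it was 12.15 to 12.24, 12.08 to 12.45 and 11.73 to 12.13, with overlap.

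Cell cycle markers, Mki67 among them, were all called lower in both oligodendrocyte groups against OPC (7 of 7), with mean log2 levels of 7.13 to 7.63 on CKO, 8.12 to 9.84 on control and 10.70 or more on OPC arrays. All 11 tested astrocyte markers were above 0 in both, and 10 were called higher in each, where 24.4% of all genes were in control and 23.8% in CKO against OPC. Neither list of markers was tested for its part in the sterol gene differences. Among the OPC arrays, replicate 2 was highest for 13 of the 30 genes, replicate 4 for 9, replicate 1 for 6 and replicate 3 for 2. The same count was not made over all genes, so nothing particular to these genes is read from it.

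Probe sets of 1 gene gave different values on the progenitor arrays with low 5′ to 3′ ratios; the genes named here were chosen after their values were seen. Of the 56 kept probe sets, control against OPC had 21 lower and 13 higher, where 25.5% and 27.4% of all probe sets were. Scd2 had 3 probe sets. The brightest gave 19608, 24920, 26470 and 24513 on OPC replicates 1 to 4, overlapping the oligodendrocytes. On the same arrays the second gave 891.1, 10744, 5047 and 394.8 and the third gave 184.1, 2452, 599.2 and 194.1, against 13912 to 18326 and 5017 to 9398 on the control arrays. The log2 difference of control from OPC was therefore -0.03 ± 0.11 by the first, 2.92 ± 0.79 by the second and 3.77 ± 0.65 by the third (limma over probe sets, adjusted p = 0.842, 0.0091 and 0.000735). OPC replicates 1 and 4 were lowest for both of the latter, and the Gapdh ratio was lowest on the same arrays. The brightest probe set of Scd2 gave 22327, 20163 and 22830 on CKO replicates 1 to 3. The highest signals of any probe set on those arrays were 22513, 22089 and 24031. Whether signals so near the top can still show a rise was not tested.

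**Figure D4:**
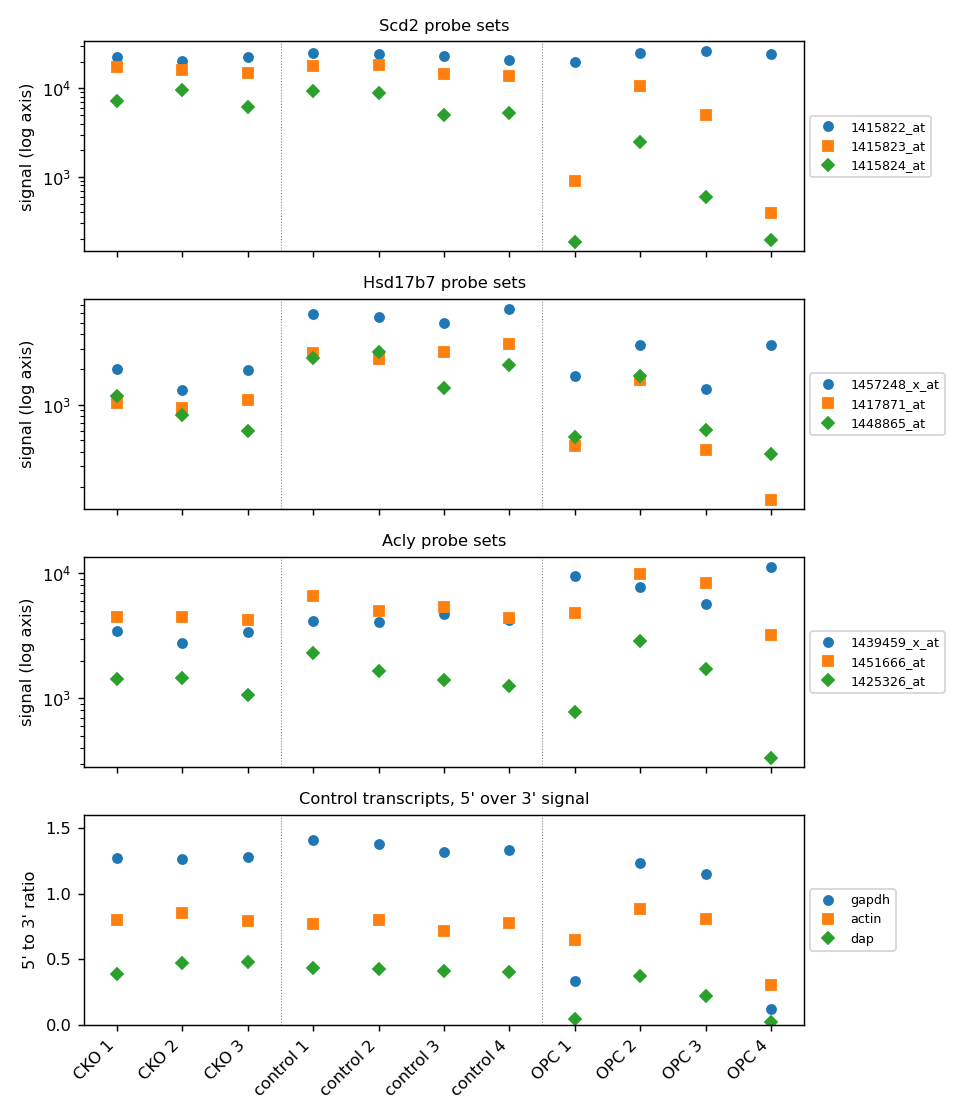
Signal of the kept probe sets of Scd2, Hsd17b7 and Acly on each array (log axes), above the ratio of 5′ to 3′ signal of Gapdh, actin and the spiked-in dap transcript (linear axis); dotted lines part the groups. On OPC replicates 1 and 4 the Gapdh ratio is 0.332 and 0.12, and some probe sets of a gene drop there while others do not.

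The same arrays parted probe sets of other genes. Acly gave 4762, 9807, 8380 and 3189 on OPC replicates 1 to 4 by its brightest probe set, and 9526, 7817, 5662 and 11288 by another, so that replicates 1 and 4 were lowest by the brightest and highest by the other. Fdps, measured by a single kept probe set, gave 2659, 13350, 7639 and 2017, with replicates 1 and 4 below every oligodendrocyte array and replicates 2 and 3 above every one. Hsd17b7 by its second probe set gave 444.0, 1631, 416.4 and 155.7, with replicate 4 lowest. Relative to the brightest probe set of the gene, 7 of 26 probe set pairs of these genes were lower by more than 1 on the log2 scale on OPC replicates 1 and 4 than on 2 and 3 (26.9%), against 29.7% of 7063 pairs over the array. The share in these genes was close to that over the array.

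Leaving out OPC replicates 1 and 4, control against OPC had 14 genes lower, where 22.7% of all genes were, and 6 higher, where 19.9% were. Fdps (-1.07, limma, adjusted p = 0.00855), Acly (-0.78, adjusted p = 0.00526) and Cyp51 (-0.81, adjusted p = 0.00994) were then called lower and Insig2 (0.79, adjusted p = 0.00494) higher. Mvk (-0.74, adjusted p = 0.0559) and Fasn (-0.51, adjusted p = 0.0693) were no longer called. In CKO against OPC the same step gave 18 lower and 4 higher genes, where 21.4% and 20.1% of all genes were, with Fdps at -1.63 (adjusted p = 0.00149), Acly at -1.06 (adjusted p = 0.00161), Mvd at -0.98 (adjusted p = 0.0339) and Insig2 at 0.89 (adjusted p = 0.00356) newly called. Srebf2 (0.41, adjusted p = 0.316), Ebp (-0.50, adjusted p = 0.137) and Pmvk (-0.42, adjusted p = 0.0882) lost their calls. The rises of Hsd17b7 (1.43), Me1 (1.46) and Srebf1 (1.47) in control cultures kept theirs.

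Other genes of the pathway were counted from lists of processing and sensing genes, side branches, further lipid genes under SREBP, and the oxysterol side. Of 8 processing and sensing genes 0 were called in CKO against control (limma), where 3.88% of all genes were lower and 3.64% higher. Erlin1, a membrane protein of the endoplasmic reticulum, was lower in both oligodendrocyte groups against OPC (-1.57 ± 0.37 in control), and its relative Erlin2 was higher (0.43 ± 0.16). Mbtps2, the protease that makes the second cut in SREBP, was lower in CKO against OPC (-1.07 ± 0.25) and Rnf139 higher (0.67 ± 0.22). Of 7 genes of mevalonate side branches, 1 was called lower in CKO against control and 0 higher, against the same 3.88% and 3.64%. It was Fntb, a subunit of farnesyltransferase, at 631.0 ± 89.1 against 1453 ± 421 (SD, n = 3 and 4, limma, adjusted p = 0.019). Fntb was also higher in control cultures than in OPC (1.30 ± 0.24), whereas Ggps1 (-0.81) and Nus1 (-0.54), which lead to geranylgeranyl and dolichol, were lower.

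Of 13 further lipid genes, 1 was called lower in CKO against control and 0 higher (limma), where 3.88% and 3.64% of all genes were: Elovl6, the elongase of saturated fatty acids, at 2150 ± 471 against 5193 ± 1160 (SD; -1.26 ± 0.21, adjusted p = 0.00289). In control against OPC 4 were higher (30.8%) and 2 lower (15.4%), where 24.4% and 29.6% of all genes were. Fads2, a desaturase of polyunsaturated fatty acids (1.45 ± 0.22), Gpam, which starts glycerolipid synthesis (1.16 ± 0.32), and Slc25a1, the mitochondrial citrate carrier (0.52 ± 0.19), were among those higher. Tmem97 (-1.76 ± 0.34) and Pgd (-0.99 ± 0.27), of the pentose phosphate route, were lower.

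On the oxysterol side, whose genes respond to, move or remove sterol, 4 of 6 tested genes were higher in control against OPC and 0 lower (limma), where 24.4% and 29.6% of all genes were; in CKO against OPC 3 were higher and 0 lower, where 23.8% and 26.8% were. Abca1, a cholesterol exporter, had mean signals of 5917 ± 1640 in control and 119.6 ± 34.3 in OPC (SD, n = 4 each), a log2 difference of 5.45 ± 0.23 (limma, adjusted p = 2.07e-08). Abcg1, another exporter, rose by 1.76 ± 0.18 and Cyp46a1, which hydroxylates cholesterol, by 2.51 ± 0.24. Cyp46a1 was the gene of this list called in CKO against control, where it was lower at 456.4 ± 76.8 against 1212 ± 291 (-1.36 ± 0.25, limma, adjusted p = 0.00623). Astrocytes are known to express Abca1, and astrocyte marker levels rose in the same comparison; their part was not tested.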

How the data were processed

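The data are 11 Affymetrix Mouse Genome 430 2.0 arrays of RNA from cultured cells. The deposited values are signal intensity per probe set, made with GCOS 1.3 and MAS 5.0 per the submitters' processing notes and scaled by the authors to a chip target of 500. Arrays have no read depth, and their number (3, 4 and 4) limits the precision. Groups and replicate numbers come from the sample titles.

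Probe sets were named by the platform annotation, with symbols updated through Entrez identifiers. Those with a signal of 200 on at least 3 arrays were kept, and each gene was represented by its brightest one (highest mean log2 signal over all arrays). Log2 of the signal plus 16 was fitted with limma 3.58.1 under R 4.3.3, a mean per group over all 11 arrays. P-values were adjusted by Benjamini-Hochberg over 10070 genes, or over 17133 probe sets where probe sets are compared, with a threshold of 0.05. Tables were made with pandas 2.3.3. The steps were tested on simulated data.

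The genes and lists were chosen with earlier results of these data known. Named with all arrays were the regulators, genes called between CKO and control, and up to 10 called genes with the largest differences from OPC; of other lists, up to 3 called genes in each direction. Acaca, Scd2, Acly and Fdps, and any further values by array, were chosen after they were seen. Same-numbered CKO and control arrays deviated together from their group means (r = 0.242, 0.241 and 0.214 across genes for replicates 1 to 3). Those numbers were therefore taken to pair the arrays in 1 alternative fit, although differently numbered arrays were not correlated for comparison. Promoters are from a RefSeq table of GRCm38.p6. For each result 21 alternatives were run.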

Additional observations from a re-analysis of the deposited data

Results flagged for a closer look

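Pmvk, the phosphomevalonate kinase, had a signal of 1439 on control replicate 1 against 1088 to 1137 on the other control arrays. The gap to the nearest array, on the log2 scale, was 0.844 of the range of the 4 arrays, above Dixon's critical value for 4 values. It was the 1 such case in 60 groups of 4 arrays, and chance flags about 1 in 20 groups.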

How the results depend on the processing

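The number of genes called between CKO and control cultures moved from 3 to 7 with limma array weights, 6 with only the 2 compared groups and 9 with the replicate block; leaving out 1 array gave 2 to 4. Over all genes the count of 758 became 2160, 1587 and 2238 in those settings. It was 411, 374 and 430 without CKO replicates 1 to 3, 481 and 489 without control replicates 1 and 3, and 1323 without OPC replicate 2. Over the probe sets of the 30 genes the count was 2, against 4 with quantile normalization, 10 with array weights, 8 with 2 groups, 14 with the block, 5 and 4 without OPC replicates 2 and 4, and 5 without OPC replicates 1 and 4. Hsd17b7 and Ebp kept their calls between CKO and control in all 21 alternatives. Scd2 reversed: control against OPC gave 0.43 with quantile normalization and 2.22 with the mean of all probe sets (limma, adjusted p = 0.000485 and 0.0024), and CKO against OPC gave 0.44 and 2.24 (0.000674 and 0.00382). For the second setting the other 2 probe sets enter the mean; the cause in the first was not tested. Control against OPC and CKO against OPC share numbers only, with r of -0.0687 to 0.193 and -0.117 to 0.033; the block gave 17 and 19 called genes there in place of 18 and 21, and 3091 in place of 5098 over all genes for CKO against OPC. Of 630 gene results per comparison, 609, 602 and 585 kept direction and side of the threshold, in the order in which the comparisons were reported. The setting without OPC replicates 1 and 4 was added after seeing the data for CKO against control. What 3 or 4 arrays a group cannot resolve is not shown to be absent.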
